A study of Caenorhabditis elegans with 18 samples.

Results

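The genes described here are 10 fatty acid desaturase and elongase genes of *Caenorhabditis elegans*: *fat-1*, *fat-2*, *fat-3*, *fat-4*, *fat-5*, *fat-6*, *fat-7*, *elo-1*, *elo-2* and *elo-5*. They were chosen by name, as the genes whose identifier carries one of these symbols, and make up 10 of the 46726 genes counted. All 10 were detected in every library and passed the filter on low counts in every comparison. Poly(A) RNA of whole animals, synchronized at the fourth larval stage and grown on *E. coli*, was sequenced in 6 genotypes with 3 biological replicates each, labelled A, B and C. *tdp-1; ceh-14* is a double mutant, as is *fust-1; ceh-14*. The single mutants were *ceh-14* and the RNA binding protein mutants *fust-1* and *tdp-1*, and the wild type was N2. *ceh-14* encodes a LIM homeodomain transcription factor, and the *ceh-14 (ch3)* allele is a deletion. *fust-1* and *tdp-1* encode RNA binding proteins, and both alleles are deletions in which a GFP marker gene was inserted, expressed in the pharynx for *fust-1* and in body wall muscle for *tdp-1*. The double mutants were made by crossing and carry the same alleles and markers. Wild-type animals carry no such marker, and the sequenced strains hold 1 allele of each gene, so that in these libraries the marker or another difference between strains cannot be told apart from loss of the named gene. The study asked how pairs of a transcription factor and an RNA binding protein act together. Here the question is what losing these factors did to the transcripts of this lipid pathway.

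In *C. elegans*, unsaturated fatty acids are made from saturated ones by a chain of desaturases, which place double bonds, and elongases, which add carbons. FAT-5, FAT-6 and FAT-7 place the first double bond: FAT-5 acts mainly on palmitic acid, and FAT-6 and FAT-7 on stearic acid. FAT-2 turns oleic acid into linoleic acid, FAT-1 places a double bond near the methyl end of the chain, and FAT-3, ELO-1 and FAT-4 lead on to arachidonic and eicosapentaenoic acid. ELO-2 lengthens palmitic acid, and ELO-5 makes the branched-chain fatty acids that the worm needs for growth. The intestine and the epidermis are the main sites of fat storage and of much of this synthesis in the worm. In whole animals, fewer cells of a type and less RNA per cell cannot be told apart.

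The libraries held 19556372 to 119814176 counts in genes, with a median of 50634860. Levels are given as CPM, a gene's share of the counts of its library on a common scale, with library sizes adjusted by TMM for differences in RNA composition. All 13 measured intestine markers and all 13 measured epidermis markers had counts in every library, among them the intestinal regulator *elt-2* at 19.7 to 32.3 CPM and the epidermal regulator *elt-3* at 24.6 to 38.1 CPM. The adult cuticle collagen gene *col-19* (2172 to 4437 CPM) and the yolk protein gene *vit-2* (4844 to 21969 CPM) were also high in every library of this larval stage. The targeted genes followed the labels. *tdp-1* stood at 13.7 to 23.2 CPM in libraries of *tdp-1* genotypes, against 84.2 to 124 CPM in the others, and *fust-1* at 35.9 to 51.6 CPM in *fust-1* genotypes, against 144 to 183 CPM. *ceh-14* stood at 0.675 to 2.47 CPM in *ceh-14* genotypes, against 2.70 to 7.0 CPM. Replicates C and A of *fust-1* and C of *tdp-1; ceh-14* stood farthest from their genotype means over all genes, at root mean square differences of 0.572, 0.509 and 0.441 on the log2 scale. The other 15 libraries were at 0.217 to 0.403.

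The 10 genes lie on 2 chromosomes of the WBcel235 genome. *fat-4* (chromosome IV, 9799429 to 9802226) and *fat-3* (IV, 9803023 to 9806119) are neighbours on the forward strand with 796 bases between them. *fat-1* (IV, 13315644 to 13318811) and *fat-2* (IV, 13323873 to 13326395) are neighbours on the same strand with 5061 bases between them and no other coding gene starting there. *elo-5* (IV, 5374616 to 5377117), *elo-1* (IV, 9526366 to 9528336), *fat-6* (IV, 11913692 to 11915687) and *elo-2* (IV, 17466062 to 17467408) stand apart from them and from each other. *fat-7* (V, 7151353 to 7153146) and *fat-5* (V, 17725004 to 17726818) are the pair on chromosome V. Exons of *elo-5* share 162 bases with *F41H10.3* and those of *fat-5* share 28 bases with *twk-42*, both on the opposite strand. The strand setting of the counting is not given in the sources used here, so reads in those stretches are of uncertain origin. *fat-6* and *fat-7* encode closely similar proteins, and reads that mapped to more than 1 place, 5.89% to 12.2% of the records in a library, were not counted for any gene.

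Levels between genes were compared per kilobase of exon. The median over the 18 libraries was 717 CPM per kilobase for *fat-2*, 463 for *fat-6*, 452 for *elo-1*, 378 for *elo-5*, 333 for *elo-2*, 252 for *fat-1*, 210.4 for *fat-4* and 105 for *fat-3*. *fat-5* (30.7 CPM per kilobase) and *fat-7* (16.8 CPM per kilobase) were lowest. *fat-2* stood above *fat-6*, *fat-1* above *fat-4*, *fat-4* above *fat-3* and *fat-3* above *fat-5* in 18 of 18 libraries. *elo-2* stood above *fat-1* in 16 of 18 libraries and *elo-1* above *elo-5* in 14. The order of the remaining neighbours varied. *fat-6* was above *elo-1* in 7 libraries, *elo-5* above *elo-2* in 11 and *fat-5* above *fat-7* in 10.

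**Figure D1:**
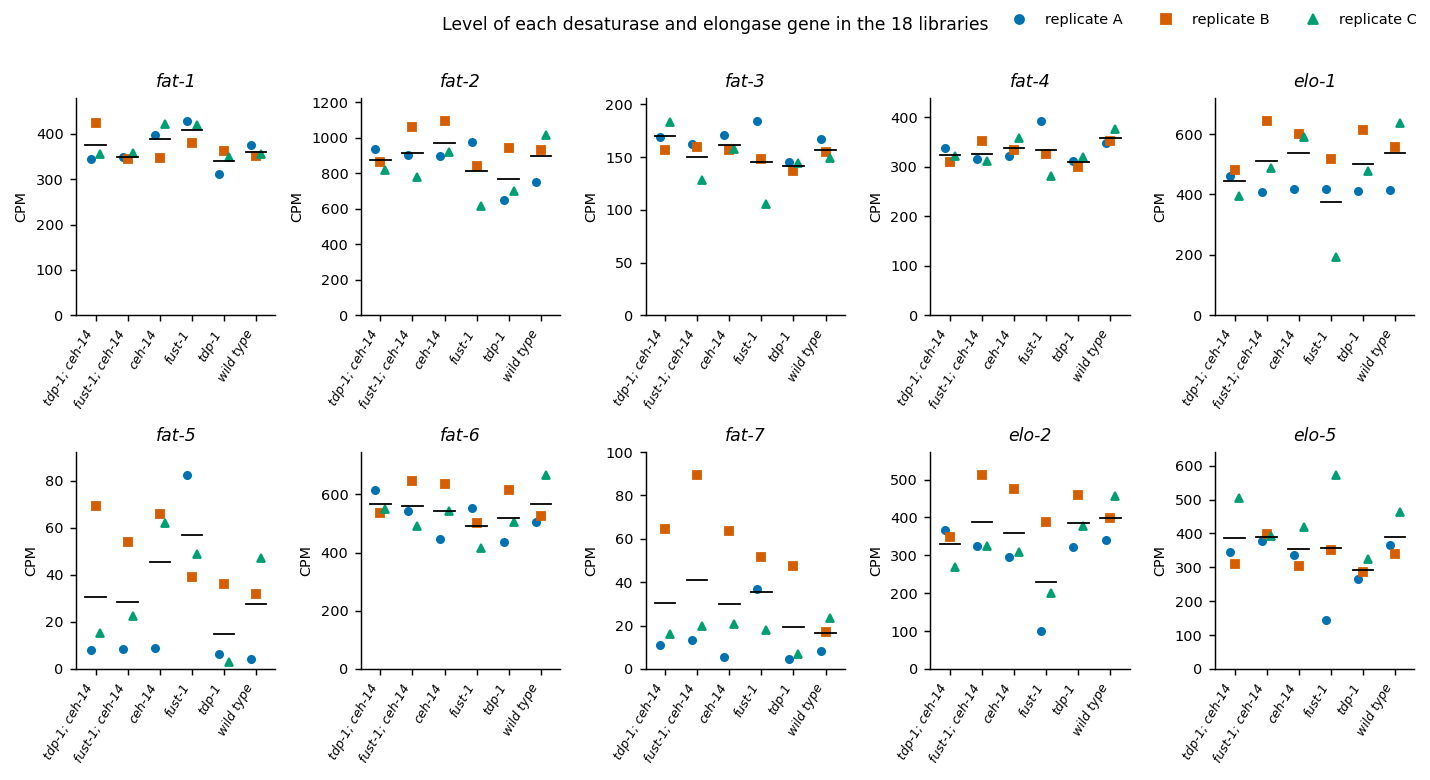
Level of each of the 10 genes (y axis, CPM, linear from 0) in the 6 genotypes (x axis), with 1 point per library, shaped and coloured by replicate letter, and a bar at the mean of 3 libraries. *fat-1* and *fat-4* are nearly flat, while *fat-5* runs from 2.88 to 82.5 CPM and *fat-7* from 4.45 to 89.5 CPM with wide scatter inside most genotypes.

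No gene of the 10 passed an adjusted p under 0.05 in any of 12 comparisons by edgeR's quasi-likelihood test, fitted without a term for the replicate letter and with Benjamini-Hochberg adjustment over all genes tested. Each of the 5 mutants was set against wild type and each double mutant against either single mutant, which gave 9 comparisons of pairs. The others were the interaction of *ceh-14* with each RNA binding protein, which asks whether the double mutant departs from the sum of the single ones, and the loss of *ceh-14* over 3 backgrounds. Calls were few among all genes as well. The share of all genes called was 0.12% for *tdp-1; ceh-14*, 0.351% for *fust-1; ceh-14*, 0.092% for *ceh-14*, 0.0184% for *fust-1* and 0.128% for *tdp-1*, each against wild type. It was 3.67% for *tdp-1; ceh-14* against *tdp-1*, 0.00594% for *tdp-1; ceh-14* against *ceh-14*, 0.0494% for *fust-1; ceh-14* against *fust-1* and 0.0308% for *fust-1; ceh-14* against *ceh-14*. It was 0.0405% for the interaction of *tdp-1* and *ceh-14*, 0.0237% for that of *fust-1* and *ceh-14*, and 2.11% for the loss of *ceh-14* over 3 backgrounds. With calls this rare in these edgeR fits, a count of 0 among 10 genes does not set these genes apart. The lowest adjusted p of the 120 tests was 0.202, and 2 tests had an unadjusted p under 0.05: *elo-5* in *tdp-1* and *fat-7* in *fust-1*, both against wild type. DESeq2 also called none of the 10, with a lowest adjusted p of 0.168, though it called more of all genes in every comparison. For *tdp-1* against wild type it called 838 of 16420 genes, where edgeR called 21 of 16415. For *tdp-1; ceh-14* against *tdp-1* it called 1450 of 17925, where edgeR called 619 of 16849. A test of any difference between the 6 genotypes over all 18 libraries was added after the data had been seen. Without a term for the replicate letter it called 0 of the 10 genes (lowest adjusted p = 0.453, 0 unadjusted p under 0.05, 4.63% of all genes called). With that term the lowest adjusted p was 0.136, for *elo-2* (unadjusted p = 0.0480), and that of *fat-5* was 0.147 (unadjusted p = 0.0559).

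Per gene and pair of genotypes, the 3 libraries of one lay wholly above or below those of the other in 7 of 90 cases, which are given with their genes below. There were 0 such cases for *fust-1; ceh-14* (14.5% of all genes) and for *ceh-14* (7.21%) when set against wild type. With *ceh-14* as the comparison there were also 0, for *tdp-1; ceh-14* (18.5%) and for *fust-1; ceh-14* (6.15%).

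The intervals say how large a change could have gone unseen. For *fat-1*, *fat-2*, *fat-3*, *fat-4* and *fat-6*, the 95% interval of the log2 fold change lay between -1 and 1, that is within 2-fold, in all 12 comparisons. For *elo-1* and *elo-2* it did so in 9 of 12 and for *elo-5* in 8 of 12, and the exceptions all involved *fust-1* libraries or an interaction. For *fat-5* and *fat-7* it did so in 0 of 24 tests, with standard errors of 0.48 to 1.54, where those of the other genes were 0.07 to 0.54. For *fat-5* and *fat-7* these fits, without a term for the replicate letter, therefore leave room for a change of more than 2-fold in every comparison. They do not show that the genotypes were alike. With the letter as a term, the standard error of *fat-5* in *ceh-14* against wild type was 0.15 rather than 0.90. That of *fat-7* in *tdp-1; ceh-14* against *tdp-1* was 0.23 rather than 0.98. These are the 2 comparisons in which that fit called a gene of the 10. The median log2 fold change of the 10 genes ran from -0.13 to 0.17 over the 12 comparisons, and that of all genes tested from -0.05 to 0.06.

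**Figure D2:**
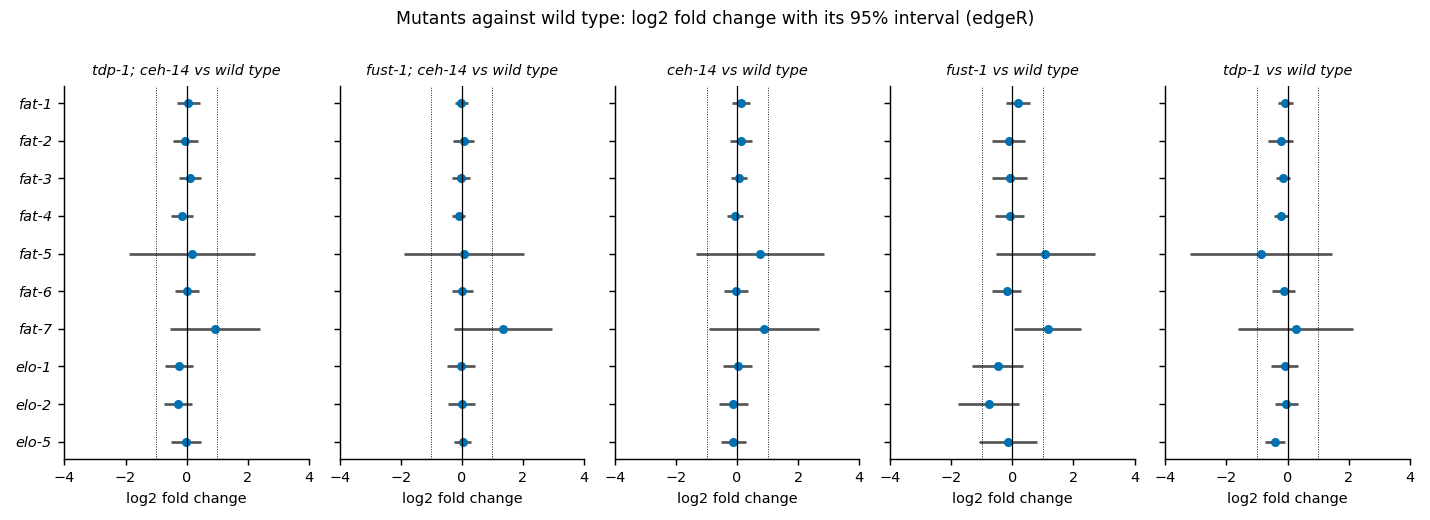
Log2 fold change (x axis, points) with its 95% interval (bars) for the 10 genes (y axis) in the 5 mutants against wild type, from edgeR, with dotted lines at -1 and 1. The intervals of *fat-5* and *fat-7* are several times wider than those of the other desaturase genes, and those of *elo-1*, *elo-2* and *elo-5* are wide in *fust-1* (for example -1.77 to 0.22 for *elo-2*).

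Among the desaturases of the first double bond, *fat-6* was steady. It averaged 566 ± 42.2 CPM in *tdp-1; ceh-14*, 559.9 ± 78.7 in *fust-1; ceh-14*, 542 ± 95 in *ceh-14*, 490.4 ± 69.5 in *fust-1*, 519 ± 91.2 in *tdp-1* and 565 ± 88.7 in wild type (SD, n = 3 each). Its log2 fold changes against wild type lay between -0.19 and 0.02. *fat-6* supplied 79.4% to 98.0% of the summed CPM per kilobase of the 3 genes in a library, with a median of 90.5%.

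*fat-5* varied by 28.6-fold over the 18 libraries. In the order A, B and C, it stood at 8.08, 69.1 and 15.1 CPM in *tdp-1; ceh-14* and at 8.28, 54 and 22.6 CPM in *fust-1; ceh-14*. It stood at 8.86, 66 and 62.2 CPM in *ceh-14*, at 82.5, 39.3 and 48.8 CPM in *fust-1*, at 6.37, 36.0 and 2.88 CPM in *tdp-1*, and at 4.26, 31.8 and 47.1 CPM in wild type. Every genotype except *fust-1* held both low and high libraries, and every mutant overlapped wild type. The log2 fold change against wild type was 0.18 (standard error 0.90) in *tdp-1; ceh-14*, 0.07 (0.84) in *fust-1; ceh-14*, 0.75 (0.90) in *ceh-14*, 1.08 (0.71) in *fust-1* and -0.87 (1.0) in *tdp-1*. None of these passed the test in the fits without a term for the replicate letter. Letter by letter, *ceh-14* stood above wild type in A, B and C alike, at 8.86 against 4.26 CPM, 66 against 31.8 CPM and 62.2 against 47.1 CPM. This was not particular to *ceh-14*. In each letter *fust-1* also stood above wild type and *tdp-1; ceh-14* above *tdp-1*, and *fust-1; ceh-14* stood below *ceh-14*.

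*fat-7* varied by 20.1-fold. It stood at 11, 64.3 and 16 CPM in *tdp-1; ceh-14*, at 13.2, 89.5 and 19.7 CPM in *fust-1; ceh-14* and at 5.36, 63.7 and 20.8 CPM in *ceh-14*. It stood at 37, 51.8 and 18 CPM in *fust-1*, at 4.45, 47.3 and 6.89 CPM in *tdp-1*, and at 8.38, 17.2 and 23.7 CPM in wild type. Replicate B was far above A and C in 4 of the 5 mutants, but not in wild type, and every mutant overlapped wild type. Against wild type the largest estimates were 1.35 (standard error 0.70, adjusted p = 0.611 from edgeR) in *fust-1; ceh-14* and 1.16 in *fust-1* (standard error 0.48, adjusted p = 0.9997). Without 1 library at a time the estimate in *fust-1* lay between 0.76 and 1.49 and that in *fust-1; ceh-14* between 0.07 and 1.76. Letter by letter, *tdp-1; ceh-14* stood above *tdp-1* in A, B and C alike. The levels were 11 against 4.45 CPM, 64.3 against 47.3 CPM and 16 against 6.89 CPM. Without a term for the letter, this log2 fold change was 0.65 (standard error 0.98, edgeR adjusted p = 0.686).

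The scatter of *fat-5* and *fat-7* was unusual among all genes. The standard deviation of log2 CPM within genotypes was 1.54 for *fat-5* and 1.39 for *fat-7*, at percentiles 99.5 and 99.3 of the 13681 genes with a mean of at least 1 CPM, whose median was 0.31. *fat-1* (0.11, percentile 2.76) and *fat-4* (0.12, percentile 3.82) were among the steadiest genes. *fat-3* (0.19), *fat-6* (0.21) and *fat-2* (0.24) were below the median of all genes, and *elo-1* (0.40), *elo-5* (0.46) and *elo-2* (0.48) above it.

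**Figure D3:**
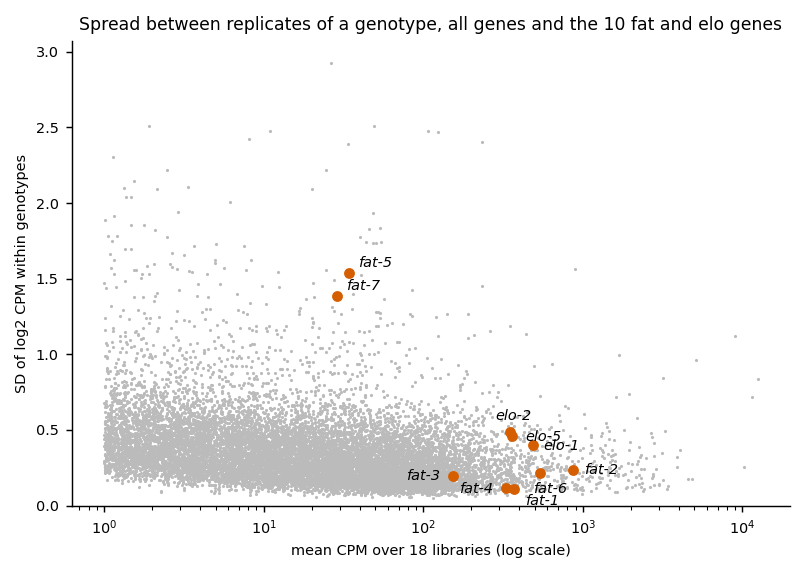
Standard deviation of log2 CPM within genotypes (y axis) against mean CPM over 18 libraries (x axis, log scale) for 13681 genes (grey) and the 10 genes (orange, named). *fat-5* (1.54) and *fat-7* (1.39) lie high above genes of similar level, and *fat-1* (0.11) and *fat-4* (0.12) at the lower edge.

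The scatter of *fat-5* and *fat-7* followed the replicate letter, whose meaning is not given in the sources used here. *fat-7* was lowest in replicate A in 5 of 6 genotypes and highest in replicate B in 5 of 6. Its level was 4.45 to 37 CPM in the 6 A libraries (median 9.69), 17.2 to 89.5 in the B libraries (median 57.7) and 6.89 to 23.7 in the C libraries (median 18.9). *fat-5* was lowest in A in 4 of 6 genotypes and highest in B in 4 of 6, with medians of 8.18 CPM in A, 46.6 in B and 34.9 in C. Replicate A of *fust-1* departed from this in both genes, and held the highest *fat-5* level of all libraries (82.5 CPM) and the highest *fat-7* level of the A libraries (37 CPM). Between letters lay 59.5% of the variance of log2 CPM of *fat-7* and 35.1% of that of *fat-5*, against a median of 22.6% over all genes. Between genotypes lay 17.4% and 28.9%, against a median of 40.9%. In *fat-1* this was turned round, with 1.85% between letters and 50.6% between genotypes.

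A test of the letter, with genotype in the same edgeR fit over 18 libraries, was added after this pattern had been seen. It called *fat-7* (log2 difference of B over A 2.33, adjusted p = 0.00554), *fat-5* (2.17, adjusted p = 0.0433) and *elo-2* (0.65, adjusted p = 0.0413). These are 3 of the 10 genes, where 26.4% of all genes were called for the letter, so a letter effect is not particular to this pathway. Marker lists of several tissues moved with the letter too. The summed level of 8 pharynx markers, 7 of which had counts in every library, was 227 to 323 CPM in A, 44.6 to 96.8 CPM in B and 38.7 to 72.9 CPM in C. That of 8 muscle markers was 6360 to 8332 CPM in A, 4096 to 5722 in B and 2718 to 7256 in C, so that A and B did not overlap. Molting and stage markers, 13 in number, summed to 23008 to 50011 CPM in A (median 38622), 12025 to 23170 in B (median 17191) and 13982 to 34650 in C (median 26205). The ranges of A and B overlapped. This sum was carried largely by the yolk protein genes *vit-2* and *vit-6* and by *col-19*, with medians of 9853, 10635 and 2790 CPM over all libraries. The medians of *mlt-10* and *bli-1* were 8.81 and 7.62 CPM, so the sum does not show how molting genes moved. For 10 neuron markers the sums were 457 to 469 CPM in A, 400.5 to 459.6 in B and 403 to 429.9 in C, without overlap of A and C. All genes of these 3 lists had counts in every library.

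Pooled over genotypes, the summed level of 13 intestine markers overlapped between letters. It was 5269 to 7130 CPM in A, 4117 to 6959 in B and 2981 to 8161 in C. Within genotypes it was highest in A except in *tdp-1*, where A, B and C stood at 7130, 6959 and 8161 CPM. The sum of 13 epidermis markers overlapped as well, at 797 to 1594 CPM in A, 611 to 1408 in B and 338 to 1475 in C. Within genotypes that sum was highest in A except in *fust-1* and *fust-1; ceh-14*. For 10 germline markers the sums were 3426 to 4365 CPM in A, 3147 to 3883 in B and 2349 to 4042 in C. They were highest in A except in *fust-1; ceh-14*. The overlaps therefore do not show that intestine, epidermis and germline markers were free of the letter. The part of these 7 lists in the *fat-5* and *fat-7* levels was not tested.

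*fat-5* and *fat-7* varied together from library to library. Across the 18 libraries their log2 CPM gave Pearson's r = 0.836 (permutation p = 5.00e-05, adjusted over 45 pairs of the 10 genes 0.00112) and Spearman's rho = 0.856 (permutation p = 4.00e-05, adjusted 0.0009). Without the 2 libraries farthest from the median of *fat-5*, r was 0.821. The relation was present within each letter, at r = 0.827 in A, 0.737 in B and 0.934 in C (6 libraries each). Libraries of 1 genotype or 1 letter are not fully independent of each other.

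**Figure D4:**
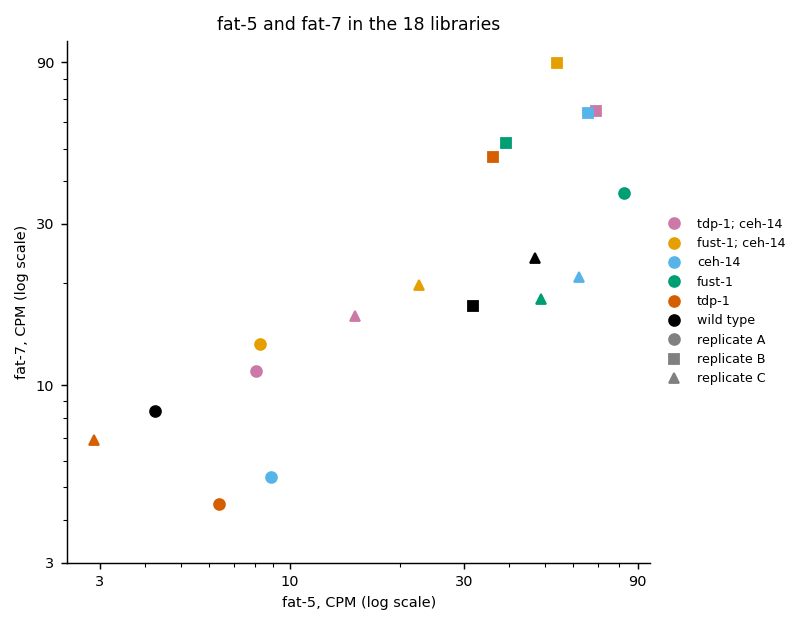
Level of *fat-7* (y axis, CPM, log scale) against *fat-5* (x axis, CPM, log scale) in 18 libraries, coloured by genotype and shaped by replicate letter. A libraries (circles) other than that of *fust-1* lie at the lower left, at 4.26 to 8.86 CPM of *fat-5*, and B libraries (squares) further right, at 31.8 to 69.1 CPM.

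Genes with the most similar profile were found by the smallest root mean square difference of centred log2 CPM over 18 libraries. For *fat-5* they were WBGene00045316 (0.67), *F21C10.9* (0.68) and *acdh-1* (0.78), and *fat-7* came in the fifth place at 0.82. *acdh-1* encodes an acyl-CoA dehydrogenase of propionate breakdown. It stood at 125 to 978 CPM in A (median 148), 936 to 1483 CPM in B (median 1282) and 313 to 1940 CPM in C (median 1091), and again replicate A of *fust-1* was the highest of the A libraries. For *fat-7* the nearest genes were *C50D2.6* (0.73), *sir-2.3*, which encodes a sirtuin (0.75), and WBGene00045316 (0.78). The nearest genes of *fat-2* were *M176.11* (0.11), *fat-6* (0.12) and *ubc-16* (0.14), and those of *fat-6* were *dhs-30* (0.12), *F40A3.3* (0.12) and *mpdu-1* (0.12). Each of the other 6 genes had no member of the pathway among its 3 nearest: these were *fem-1*, *rad-8* and *vps-36* for *fat-1*, *rae-1*, *T20D3.5* and *mce-1* for *fat-3*, and *pas-6*, *acl-9* and *W02B12.11* for *fat-4*. They were *nhr-28*, *R106.6* and *zip-11* for *elo-1*, *slc-17.5*, *W01C8.5* and *sptl-2* for *elo-2*, and *F40H3.2*, *abhd-3.2* and *Y58A7A.1* for *elo-5*.

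In the polyunsaturated branch, the desaturase genes *fat-1*, *fat-2*, *fat-3* and *fat-4* varied less within genotypes than the median of all genes, and the elongase gene *elo-1* varied more. *fat-2*, which makes linoleic acid, averaged 873 ± 58.5 CPM in *tdp-1; ceh-14*, 914 ± 143 in *fust-1; ceh-14*, 971 ± 106 in *ceh-14*, 812 ± 184 in *fust-1*, 765 ± 156 in *tdp-1* and 899 ± 136 in wild type (SD, n = 3 each). Its lowest library was replicate C of *fust-1* (613 CPM) and its highest replicate B of *ceh-14* (1093 CPM). *fat-2* and *fat-6* moved together across the libraries (r = 0.836, permutation p = 4.00e-05, adjusted 0.00112; rho = 0.868, permutation p = 2.00e-05, adjusted 0.0009). Without the 2 libraries farthest from the median of *fat-2*, r was 0.718, and within the letters r was 0.668 in A, 0.887 in B and 0.932 in C.

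*fat-1*, the desaturase of the methyl end, spanned only 311 to 427 CPM over all 18 libraries. It stood at 427, 380 and 420 CPM in *fust-1*, against 374, 351 and 356 CPM in wild type, so that the 3 *fust-1* libraries lay above every wild-type library. The log2 fold change was 0.19 (95% interval -0.20 to 0.59, adjusted p = 0.9997 from edgeR), and such separation was found for 6.32% of all genes in this comparison. In *fust-1; ceh-14* it stood at 348, 344 and 357 CPM, below each *fust-1* library (log2 fold change -0.21, adjusted p = 0.832; groups did not overlap for 11.3% of all genes).

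*fat-4* and *fat-3*, the neighbouring genes for the front-end desaturases, were lower in *tdp-1* than in wild type without overlap, though neither passed the test. *fat-4* stood at 312, 299.7 and 320 CPM in *tdp-1*, against 348, 352 and 377 CPM in wild type (log2 fold change -0.21, 95% interval -0.44 to 0.02, adjusted p = 0.292). *fat-3* stood at 145, 137 and 144 CPM in *tdp-1*, against 167, 155 and 149.6 CPM in wild type (log2 fold change -0.14, 95% interval -0.38 to 0.09, adjusted p = 0.445). Groups did not overlap for 27.3% of all genes in this comparison, and for 3 of these 10 genes, counting *elo-5*. *fat-4* was also below every wild-type library in *tdp-1; ceh-14* (337, 310.1 and 322 CPM, log2 fold change -0.15, adjusted p = 0.712; 10.9% of all genes did not overlap). *fat-3* stood at 169, 156 and 184 CPM in *tdp-1; ceh-14*, above each *tdp-1* library (log2 fold change 0.26, 95% interval -0.04 to 0.56, adjusted p = 0.261; 31.4% of all genes did not overlap). These 2 genes moved together over the libraries (r = 0.632, permutation p = 0.00482, adjusted 0.0434; rho = 0.552, adjusted 0.0961). Without the 2 libraries farthest from the median of *fat-3*, r was 0.413, so part of the relation rests on those libraries.

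*elo-1*, whose product lengthens polyunsaturated chains, averaged 445 ± 44.4 CPM in *tdp-1; ceh-14*, 512 ± 119 in *fust-1; ceh-14*, 536 ± 103 in *ceh-14*, 375 ± 167 in *fust-1*, 501 ± 102 in *tdp-1* and 537 ± 112 in wild type (SD, n = 3 each). Within *fust-1*, replicate C was lowest at 192 CPM, where A and B stood at 418 and 517 CPM. The log2 fold change in *fust-1* was -0.48 (95% interval -1.33 to 0.36), and between -0.81 and -0.18 when 1 library was left out. *elo-1* moved with *fat-2* (r = 0.727, adjusted p over the 45 pairs 0.0036; rho = 0.697, adjusted 0.0215, both by permutation) and with *fat-6* (r = 0.720, permutation p = 0.00027, adjusted 0.0036; rho = 0.581, adjusted 0.0739). Without the 2 libraries farthest from the median of *fat-2*, r with *fat-2* was 0.558. Without the 2 farthest from the median of *fat-6*, r with *fat-6* was 0.618. Within the letters r with *fat-2* was 0.364 in A, 0.826 in B and 0.845 in C. By rank *elo-1* also moved with *elo-2* (rho = 0.798, permutation p adjusted 0.00135), though Pearson's r did not pass (0.615, adjusted 0.112). The same held for *elo-1* and *fat-7* (rho = 0.662, adjusted 0.0348, and r = 0.402, adjusted 0.252).

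*elo-2*, whose product lengthens palmitic acid, stood at 368, 349.7 and 269 CPM in *tdp-1; ceh-14*, at 324, 513 and 326 CPM in *fust-1; ceh-14* and at 294, 476 and 309 CPM in *ceh-14*. It stood at 100.4, 388 and 199.8 CPM in *fust-1*, at 322, 460.0 and 377 CPM in *tdp-1*, and at 340.0, 399 and 455 CPM in wild type. *fust-1* held both of the lowest libraries, while its replicate B lay within the wild-type range. The log2 fold change in *fust-1* against wild type was -0.78 (standard error 0.43, adjusted p = 0.9997 from edgeR), and lay between -1.43 and -0.46 when 1 library was left out. In *fust-1; ceh-14* against *fust-1* it was 0.76 (standard error 0.47, adjusted p = 0.832). The interaction of *fust-1* and *ceh-14* was 0.93 for *elo-2* (standard error 0.54, adjusted p = 1), the largest estimate of any comparison among the 8 genes other than *fat-5* and *fat-7*.

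*elo-5*, needed for branched-chain fatty acids, stood at 345, 308 and 505 CPM in *tdp-1; ceh-14*, at 377, 397 and 391 CPM in *fust-1; ceh-14* and at 337, 303 and 419 CPM in *ceh-14*. It stood at 145, 352 and 573 CPM in *fust-1*, at 266, 287 and 326 CPM in *tdp-1*, and at 367, 341 and 464 CPM in wild type. Both extremes of the 18 libraries were *fust-1* libraries. All 3 *tdp-1* libraries lay below every wild-type library, and groups did not overlap for 27.3% of all genes in this comparison. The log2 fold change of *elo-5* was -0.41 (95% interval -0.75 to -0.07). The adjusted p was 0.202, and 0.0860 to 0.492 when 1 library was left out, so this difference did not pass the test. In *tdp-1; ceh-14* the libraries overlapped wild type (-0.02, 95% interval -0.52 to 0.47). The interaction of *tdp-1* and *ceh-14* was 0.55 for *elo-5* (standard error 0.28, adjusted p = 0.458).

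*elo-6*, which acts beside *elo-5* in the branched-chain pathway, had a similar pattern. It stood at 502, 520.3 and 595 CPM in *tdp-1*, against 655, 652 and 840.0 CPM in wild type, without overlap (log2 fold change -0.41, standard error 0.14, edgeR adjusted p = 0.189). Groups did not overlap for 27.3% of all genes in this comparison. *elo-6* stood at 259, 607 and 634 CPM in *fust-1* and at 640.3, 600.0 and 892 CPM in *tdp-1; ceh-14*. Replicate A of *fust-1* was thus lowest of all libraries in *elo-2*, *elo-5* and *elo-6*, but not in *elo-1*, where it stood at 418 CPM.

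**Figure D5:**
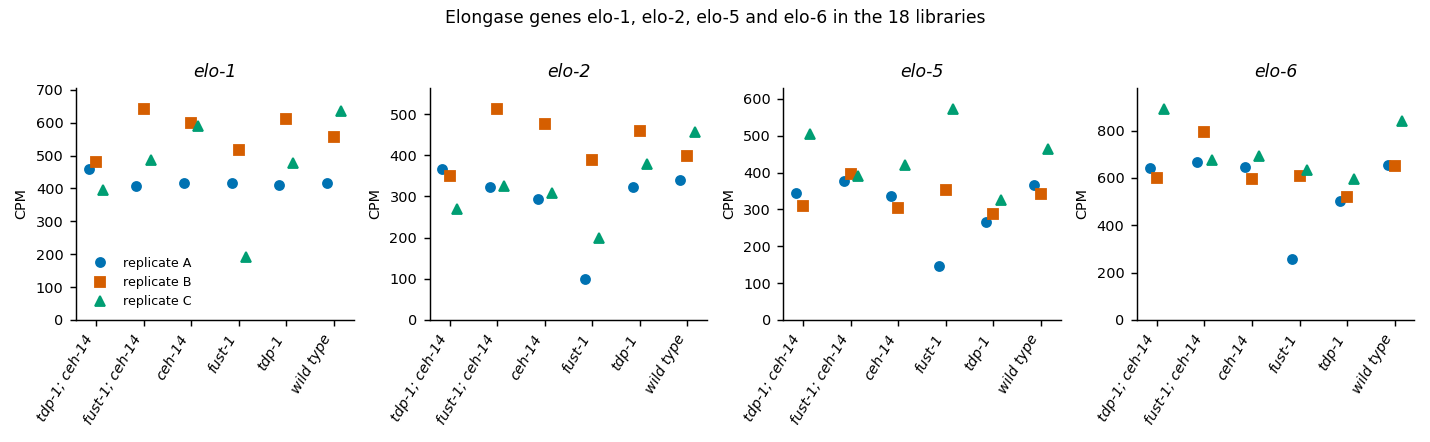
Level of *elo-1*, *elo-2*, *elo-5* and *elo-6* (y axis, CPM, linear from 0) by genotype (x axis), with 1 point per library shaped and coloured by replicate letter. Replicate A of *fust-1* (blue circle) is lowest in *elo-2* (100.4 CPM), *elo-5* (145 CPM) and *elo-6* (259 CPM), and replicate C of *fust-1* (green triangle) in *elo-1* (192 CPM).

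None of the other 6 elongase genes was called in any comparison. *elo-3* averaged 87.5 ± 22.1 CPM in *tdp-1; ceh-14*, 120.4 ± 15.6 in *fust-1; ceh-14*, 117 ± 7.51 in *ceh-14*, 88.0 ± 26.4 in *fust-1*, 119 ± 12 in *tdp-1* and 114 ± 8.75 in wild type (SD, n = 3 each). *elo-9* was at 7.80 CPM in replicate A of *fust-1* and at 14.2 to 19 CPM elsewhere. *elo-4* averaged 6.52 ± 0.658 CPM in *tdp-1* and 3.78 ± 1.52 CPM in wild type (log2 fold change 0.79, standard error 0.28, edgeR adjusted p = 0.202). *elo-8* averaged 5.66 ± 1.90 CPM in *fust-1; ceh-14* and 10.3 ± 4.08 CPM in wild type (-0.83, standard error 0.34, adjusted p = 0.552). *elo-7* averaged 3.52 ± 0.600 CPM in *fust-1; ceh-14* and 5.53 ± 1.75 CPM in wild type (-0.62, standard error 0.26, adjusted p = 0.561).

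None of 8 regulators of the pathway was called either. They are the nuclear receptor genes *nhr-49*, *nhr-80*, *nhr-13* and *nhr-66*, *sbp-1*, the worm homologue of SREBP, its coactivator *mdt-15*, and *paqr-2* and *iglr-2*, which act in the response of membranes to saturated fat. *nhr-49* and *mdt-15* are known in *C. elegans* as activators of *fat-5* and *fat-7*. *mdt-15* stood at 134, 101 and 56 CPM in *tdp-1; ceh-14*, against 149, 160.0 and 166 CPM in *tdp-1*, without overlap (log2 fold change -0.70, standard error 0.29, edgeR adjusted p = 0.216). Groups did not overlap for 31.4% of all genes in this comparison. *nhr-49* stood at 98.4, 69.2 and 49.7 CPM in *tdp-1; ceh-14*, against 112, 112 and 108 CPM in *ceh-14* (-0.64, standard error 0.25, adjusted p = 0.437). Replicates C of *tdp-1; ceh-14* and of *fust-1* held the lowest levels of both genes, at 56 and 61.8 CPM for *mdt-15* and 49.7 and 53.3 CPM for *nhr-49*. Both libraries are among the 3 that stand farthest from their genotype means. *nhr-80* averaged 18.5 ± 3.12 CPM in *tdp-1; ceh-14*, 16.5 ± 1.97 in *fust-1; ceh-14*, 18.5 ± 3.52 in *ceh-14*, 17.9 ± 3.37 in *fust-1*, 19.8 ± 3.75 in *tdp-1* and 20.1 ± 2.53 in wild type.

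Further lipid genes came from 10 lists around these 10 genes: the other elongases, the remaining enzymes of the elongation cycle, electron-transfer partners of desaturases, the regulators, fatty acid synthesis, acyl-CoA synthetases, beta-oxidation, lipid storage and lipases, lipid binding proteins, and phosphatidylcholine synthesis. They held 115 or 116 tested genes. In 10 of the 12 comparisons 0 of them were called. In *tdp-1; ceh-14* against *tdp-1* 2 fell and 0 rose, at a median log2 fold change of -0.01 where that of all genes was 0.02 and 3.67% of all genes were called. The count was 9 without replicate A of *tdp-1; ceh-14*, 1 without its replicate B or without C of *tdp-1*, and 0 without A or B of *tdp-1*. In the loss of *ceh-14* over 3 backgrounds 2 fell and 0 rose, at a median of -0.05 (all genes -0.03, 2.11% called).

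*acs-20*, an acyl-CoA synthetase gene that acts in the epidermal surface barrier, was called in both. It had levels of 9.46, 11 and 7.03 CPM in *tdp-1; ceh-14* libraries, against 22.9, 23 and 23.3 CPM in those of *tdp-1*. It fell by 1.33 on the log2 scale (standard error 0.19, edgeR adjusted p = 0.0141). It stood at 8.93, 8.76 and 12.7 CPM in *fust-1; ceh-14* and at 10.01, 11.4 and 8.99 CPM in *ceh-14*. In the other controls it stood at 11.6, 14.6 and 9.44 CPM in *fust-1* and at 14.8, 18.3 and 10.7 CPM in wild type, so that *tdp-1* was the high group. The call in *tdp-1; ceh-14* against *tdp-1* ended without replicate A, B or C of *tdp-1* (-1.36, -1.36 and -1.32) and with replicates B and C only (-1.39). Over the 3 backgrounds *acs-20* fell by 0.69 (standard error 0.17, adjusted p = 0.0403), a call that ended when any of 14 of the 18 libraries was left out (-0.60 to -0.73), with size factors of DESeq2 (-0.68) and with replicates B and C only (-0.66).

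*ech-9*, an enoyl-CoA hydratase gene, stood at 22.1, 24.6 and 22.2 CPM in *tdp-1; ceh-14*, against 51.2, 49.7 and 37.5 CPM in *tdp-1*. In wild type it stood at 25.4, 38.9 and 21.3 CPM. *tdp-1* had the highest mean of all genotypes (46.1 ± 7.49 CPM, against 28.5 ± 9.22 in wild type). *tdp-1; ceh-14* overlapped wild type (log2 fold change -0.31, edgeR adjusted p = 0.674). In *tdp-1; ceh-14* against *tdp-1*, *ech-9* fell by 1.0 on the log2 scale (standard error 0.17, edgeR adjusted p = 0.0219). This call ended without replicate B of *tdp-1; ceh-14* (-1.05) and without replicates A or B of *tdp-1* (-0.94 and -0.97). It also ended with all 18 libraries in one fit (-1.01, adjusted p = 0.319) and with replicates B and C only (-0.92). *ech-1.1*, which encodes a homologue of the mitochondrial trifunctional protein of beta-oxidation, fell by 0.67 over the 3 backgrounds (standard error 0.16, adjusted p = 0.0384). It averaged 5.69 ± 1.53 CPM in *tdp-1; ceh-14*, 4.68 ± 0.996 CPM in *fust-1; ceh-14* libraries and 3.84 ± 0.480 in *ceh-14*, against 11.6 ± 2.61 in *tdp-1*, 7.44 ± 2.59 in *fust-1* and 4.74 ± 0.481 in wild type (SD, n = 3 each). *tdp-1* was thus the high group. By background, the log2 fold change was -0.29 in wild type, -0.65 in *fust-1* and -1.02 in *tdp-1*. None of these was called by edgeR without a term for the replicate letter. The call over the 3 backgrounds ended when any of 12 of the 18 libraries was left out (-0.58 to -0.71). It also ended without a filter on low counts (-0.68) and with replicates B and C only (-0.63).

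Epidermal genes moved in the same comparison. In *tdp-1; ceh-14* against *tdp-1*, the median log2 fold change of 13 epidermis markers was -1.60, where that of all genes was 0.02. Of these markers 5 fell and 0 rose, where 3.67% of all genes were called. Among them were the cuticle collagen genes *sqt-3* (-2.32), *dpy-5* (-2.34) and *rol-6* (-1.96) and the hedgehog-related gene *wrt-2* (-3.34). *wrt-2* was near the floor in *tdp-1; ceh-14*, at 0.308 to 0.484 CPM, against 2.31 to 5.71 CPM in *tdp-1*. Of 13 molting and stage markers 7 fell and 0 rose, at a median of -2.26. Among them were the period homologue *lin-42* (-2.51), *qua-1* (-2.33), the collagen gene *bli-1* (-2.74) and *mlt-11* (-2.66). With replicates B and C only, 0 markers of either list were called, and with all 18 libraries in one fit 0 of the epidermis and 3 of the molting and stage markers. The molting and stage markers called numbered 2 and 4 without replicates B and C of *tdp-1; ceh-14*, and 1 and 3 without A and C of *tdp-1*. The summed level of the epidermis markers was 338 to 833 CPM in *tdp-1; ceh-14* and 1408 to 1594 CPM in *tdp-1*, with counts of all 13 in every library. The part of these markers in the values of *acs-20* and *ech-9* was not tested. In *tdp-1; ceh-14* against *tdp-1* the 10 desaturase and elongase genes had a median log2 fold change of 0.17. None of the 8 genes other than *fat-5* and *fat-7* had an interval reaching 2-fold there.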

How the data were processed

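Per the study's methods and labels, RNA was extracted with Tri reagent, poly(A) RNA was selected and libraries were made with NEBNext kits, and paired 150-base reads were sequenced on an Illumina HiSeq instrument. The authors mapped reads to WBcel235 with STAR 2.5.3a, counted them per gene with HTSeq 0.9.1 and deposited raw counts, 1 file per library. The strand setting and annotation release are not given in the sources used here. Rows that name no gene were left out of library sizes: multi-mapped records made up 5.89% to 12.2%, ambiguous ones 1.87% to 2.75% and those in no feature 0.461% to 0.738%.

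Counts were fitted with edgeR 4.0.16 in R 4.3.3 (filterByExpr, TMM, glmQLFit, glmQLFTest), using the libraries of each comparison alone, with Benjamini-Hochberg adjustment over all genes tested and a threshold of 0.05. The p-values quoted with fold changes come from that fit and are two-sided. The 2 interactions used 12 libraries each, and the loss of *ceh-14* used all 18 with background as a term. Intervals are at 95%. Replicates differed by more than counting error, and no 2 libraries held identical values. Errors are SD over 3 libraries, and log2 CPM used a prior count of 2. Correlations across libraries used 100000 permutations. Exon lengths and coordinates came from the WBcel235 annotation, and 3103 of 46726 gene identifiers had no symbol.

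The 10 genes, the gene lists and the markers were chosen with earlier results of these data known. Named genes are the 10 genes, the other elongases, the regulators, the targeted genes, up to 4 called genes of each further list with the lowest p, and the 3 genes with the nearest profile. The markers *elt-2*, *elt-3*, *col-19* and *vit-2* were named for their role. Alternatives were size factors of DESeq2, a fit of every gene with at least 1 count, a block for the replicate letter, one fit over all libraries, DESeq2 1.42.0 as the tool, replicates B and C only, and each library left out in turn. No sequences are shown.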

Additional observations from a re-analysis of the deposited data

How the results depend on the processing

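Of 1650 fits of the 10 genes under alternatives, 2 passed the threshold, both with the replicate letter as a block in edgeR: *fat-5* in *ceh-14* against wild type (log2 fold change 0.85, adjusted p = 0.0488) and *fat-7* in *tdp-1; ceh-14* against *tdp-1* (0.98, adjusted p = 0.0388). The block thus gave a count of 1 in each of these comparisons and changed no other call of the 10 genes. Of all genes, it called 212 of 16675 in the first comparison and 1230 of 17342 in the second. The letters were not taken as pairing the libraries. The rule used asked that deviations from genotype means correlate above 0.1 in every pair of libraries of a letter. They did so in 15 of 15 A pairs (0.326 to 0.785), 13 of 15 B pairs (-0.105 to 0.557) and 10 of 15 C pairs (-0.284 to 0.724). Still, 14 of 18 libraries were closest to their own letter, so the main fits leave differences between letters in their standard errors. Leaving out 1 library at a time (96 fits) gave a count of 0 throughout. The sign differed in 159 of the 1650 fits, none of them of a called value. Size factors of DESeq2 changed no mean level by more than 2.13% and moved the median change over all genes by at most 0.0295 (log2). In *tdp-1; ceh-14* against *tdp-1*, the other lipid genes called numbered 2. They numbered 6 with the replicate block, 4 by DESeq2, 0 with replicates B and C only and 0 to 9 without 1 library. The epidermis markers called numbered 5, against 8 with the block, 8 by DESeq2, 0 with all 18 libraries in one fit, 0 with B and C only and 5 to 7 without 1 library. The molting and stage markers called numbered 7, against 3 with all 18 libraries in one fit, 0 with B and C only and 1 to 8 without 1 library. For the loss of *ceh-14* over 3 backgrounds the other lipid genes called numbered 2, against 1 with size factors of DESeq2, 1 without a filter on low counts, 4 with the block, 6 by DESeq2, 0 with B and C only and 0 to 3 without 1 library. The causes of these shifts were not tested, though the fits with B and C only hold fewer samples. At this depth the lowest count of a library was 152 for *fat-5* and 251 for *fat-7*, and at least 2836 for each of the others, so counting error was small beside the spread between replicates.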
